A study of Picea abies with 48 samples.

Results

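Intact hypocotyls of *Picea abies* (Norway spruce) were compared at day 14 and at day 0. The 6 libraries were chosen by their labels alone, as the 3 intact replicates of each day, out of 48 libraries and 16 groups in the series. All 6 came from wild-type seedlings labelled FP-96. Skogsgård that were never cut or grafted. The remaining libraries hold intact plants of other days and the scions and rootstocks of grafted plants. Day 0 is the day on which the sister plants were grafted, and the study used it as the reference for its intact plants. According to the study's methods, each replicate was a pool of plants and an independent biological sample, and a short piece of hypocotyl was taken from each plant. The seedlings germinated in the dark and then grew in a light chamber, so that plant age, time in the light and day of harvest cannot be told apart in this comparison. The pieces held epidermis, cortex and vascular tissue together, and fewer cells of a type cannot be told apart from less RNA per cell.

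The hypocotyl is the stem below the cotyledons. It first lengthens, with expansins loosening the wall and xyloglucan endotransglucosylase/hydrolases (XTHs) cutting and rejoining its xyloglucan, and in conifers it later thickens through a cambium that adds lignified tracheids. Laccases and class III peroxidases oxidise the monolignols that become lignin, and cutin, wax and suberin, polymers or mixtures built from fatty acids, seal the surface of the organ.

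The libraries held 13045378, 18497236 and 17599537 counted reads at day 0 and 12622687, 16479013 and 15355160 at day 14. Replicates of a day correlated at 0.968 to 0.977 (Pearson, log2 of normalized reads, across genes), and pairs of replicates differed by 3.77 to 8.51 times the variance that counting alone gives, so that no pair was a library deposited again. Between 29006 and 29940 genes reached a CPM of at least 1 in a library. Normalized reads are counts divided by the library's size factor. They are not divided by gene length and were not used to rank genes against each other.

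Of 38436 genes tested, 3009 (7.83%) were called higher at day 14 and 3079 (8.01%) were called lower. A gene was called at a Benjamini–Hochberg adjusted *p* under 0.05 in edgeR's quasi-likelihood test and a fold change over 2 (log2 over 1). The median log2 fold change of all genes was 0.01. Of the called genes, 1293 rose and 1285 fell by 4-fold or more, and 418 rose and 435 fell by 16-fold or more. The 3 day 14 libraries lay above the 3 day 0 libraries in 24.1% of the genes tested and below them in 24.2%. For 132 of the genes called lower no read was left in any day 14 library, and for 174 of those called higher no read was present at day 0. When the test was made against a 2-fold change itself, rather than against no change, 1297 genes were called higher and 1470 lower.

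**Figure D1:**
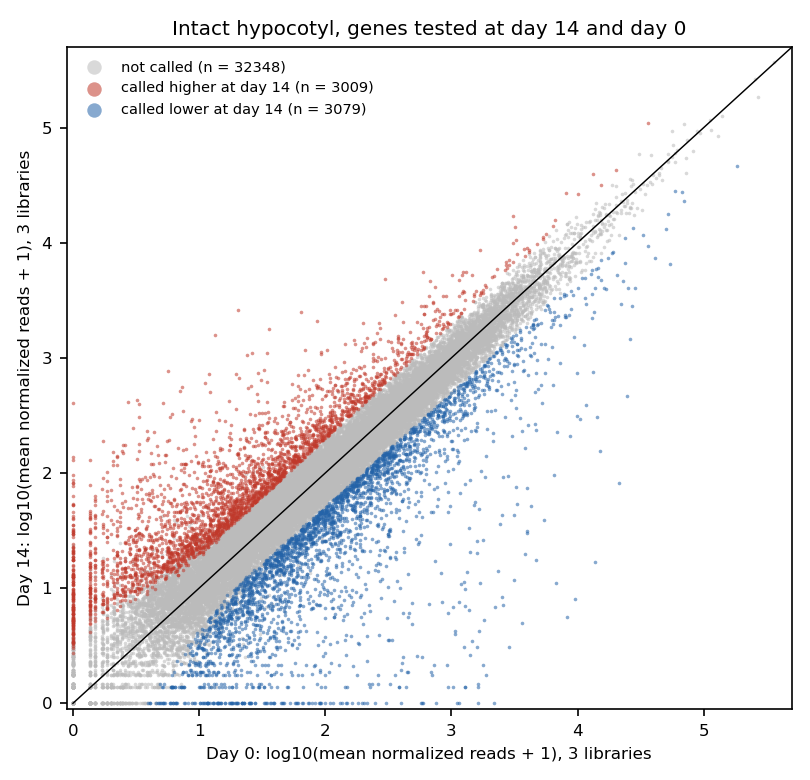
Each point is a gene tested, placed by its mean normalized reads in the 3 intact libraries of day 0 (x axis) and day 14 (y axis), both as log10 of the mean plus 1. The 3009 genes called higher lie above the diagonal and the 3079 called lower lie below it, and the lower ones reach further out among genes with many reads at day 0.

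Genes were also read as 22 lists of related function. The lists hold only genes that the study's supplement describes, so each covers a part of its family. Those descriptions came in part from the study's tables of genes that differed in grafted or intact plants or after hormone treatment. The lists were thus partly chosen on libraries of this series, and their shares called are no independent evidence about a family. Described genes were called more often than the average gene (12.9% higher and 12.9% lower of 3430 tested). A share near 12.9% is therefore that of described genes at large. The share called lower was highest for the class III peroxidases (40%) and the expansins and XTHs (39%), and the share called higher was highest for the genes of the cuticle and surface lipids (55.6%).

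**Figure D2:**
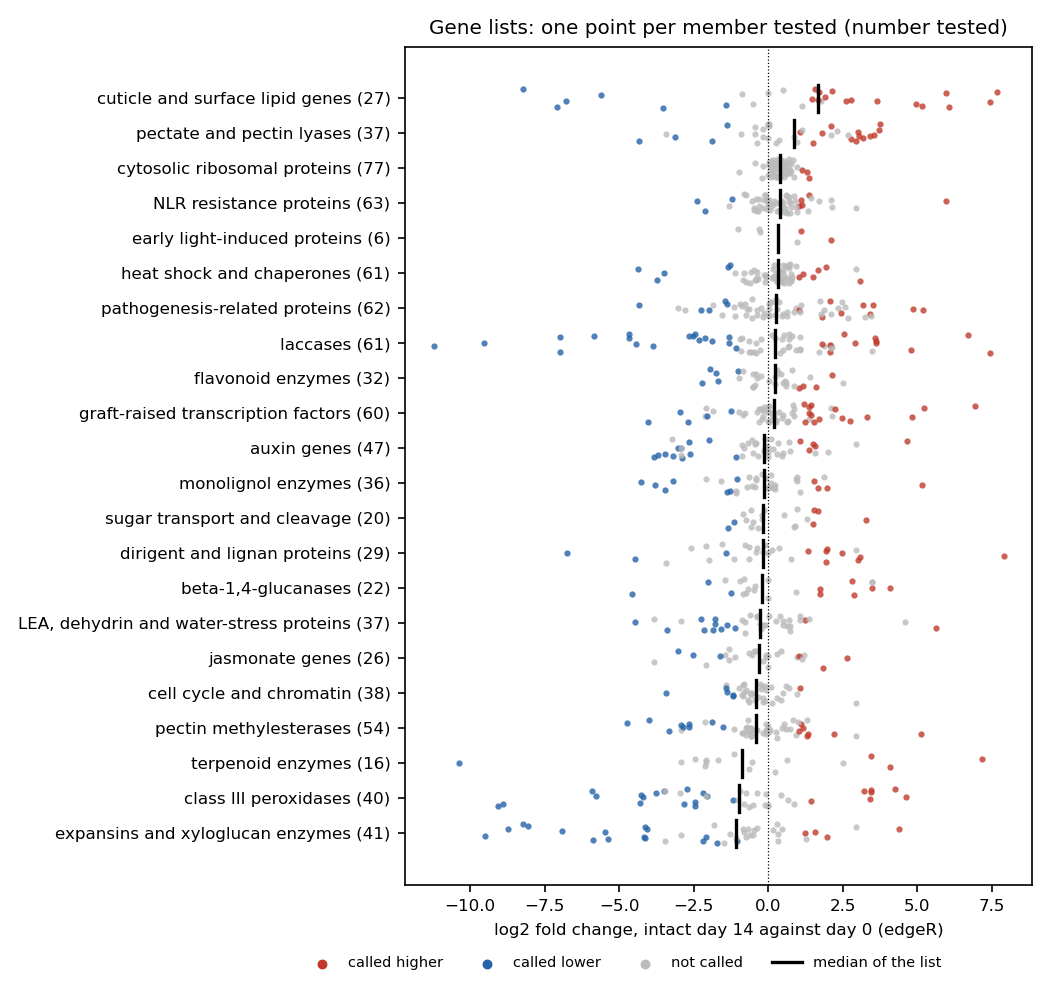
Each point is a list member tested, placed by its log2 fold change between day 14 and day 0, with lists ordered by their median (black line) and the number tested in brackets. By these edgeR values, cuticle and surface lipid genes have the highest median (1.68) and expansins and xyloglucan enzymes the lowest (−1.07). The laccases spread widely on both sides of 0.

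Wall-loosening genes were the list with the lowest median in edgeR. Of 45 expansins and xyloglucan enzymes, 41 passed the filter on low counts. Among these, 16 fell (39%) and 4 rose (9.76%), with a median log2 fold change of −1.07 in edgeR. In DESeq2 the median was −0.86, taken without that filter over all listed members with a read in any of the 48 libraries. Taken in that way in DESeq2, the class III peroxidases had the lower median (−0.93). The reads of the whole list summed to between 55154 and 78263 per library at day 0 and to between 17535 and 18613 at day 14. A pair of neighbouring XTH genes carried this fall, and without them the tested members summed to between 14423 and 19984 at day 0 and between 15407 and 17293 at day 14, which overlap. The XTH gene MA_10434153g0020 had 19206, 25491 and 19279 normalized reads at day 0 and 72.6, 103 and 66.5 at day 14. This was a 263-fold fall (log2 fold change −8.04 ± 0.66, SE, adjusted *p* = 8.3e-12), and all 3 day 14 libraries lay far below the lowest day 0 library. The next gene model on the same scaffold, MA_10434153g0010, also an XTH, fell from 26152 to 1444 reads (log2 fold change −4.18 ± 0.20). Reads shared between such near neighbours could have been split by the counting, which was taken as given.

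Several expansins came close to 0. *Expansin-A11-like* (MA_10433559g0020) had 387, 521 and 298 normalized reads at day 0 and 1.42, 2.27 and 0 at day 14. With 1011 counted reads against 3, its ratio was 328 (95% exact binomial interval 112 to 1593, counting error only). The alpha-expansin MA_19253g0020 had 569 counted reads against 1, a ratio of 554 (99 to 21911). The expansin MA_114349g0010 had 918 against 1, a ratio of 893 (160 to 35326). A gene described as expansin 3, MA_10299189g0010, fell from 2517 to 42.1 reads and kept a measurable level in each day 14 library (27.1 to 59).

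Some members of the same family rose. *Expansin A4* (MA_10425823g0010) had 3830, 3635 and 3782 normalized reads at day 0 and 8939, 8274 and 9247 at day 14. It rose 2.34-fold (log2 fold change 1.23 ± 0.10, adjusted *p* = 8.1e-13), and the day 14 libraries were close together and all above day 0. *Expansin-B3-like* (MA_10427897g0010) rose from 1214 ± 123 to 3651 ± 248 reads (mean ± SD, n = 3), a log2 fold change of 1.58 ± 0.18 (adjusted *p* = 9e-09). Expansins were therefore on both sides of the comparison, with 9247 reads of *expansin A4* in the highest day 14 library and no read of the alpha-expansin MA_19253g0020 in 2 of the 3.

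Laccases are copper enzymes that radicalise monolignols in the wall of lignifying cells. Of 72 listed, 61 passed the filter, 18 fell (29.5%) and 11 rose (18%). The median log2 fold change was 0.24 in edgeR over the 61. In DESeq2, without the filter, it was −0.32 over all members with a read, so no direction was read from it. Summed reads fell from between 18498 and 20058 per library to between 7026 and 10158. *Laccase-17* (MA_122769g0010) had 1093, 1304 and 1415 normalized reads at day 0 and 0, 1.13 and 0 at day 14. It was high in every day 0 library, while a single read was counted over the 3 day 14 libraries against 3210 before (ratio 3124, 95% exact binomial interval 560 to 123432). The laccase MA_63042g0010 had 1813 counted reads against 2, a ratio of 882 (244 to 7290). Losses were smaller in other members with many reads. A laccase 12 gene (MA_10427033g0010) fell from 3004 to 209 reads, and MA_118833g0010 and MA_205016g0010 fell 2.47-fold and 2.48-fold from 3531 and 2353 reads.

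Other laccases appeared over the same interval. The laccase MA_66348g0010 had 18.1, 1.07 and 0 normalized reads at day 0 and 745, 442 and 502 at day 14. Replicate 1 held most of the day 0 reads, yet all 3 day 14 libraries were far above it, and the log2 fold change was 6.70 ± 0.61 (adjusted *p* = 6.9e-11). No read of laccase MA_488981g0010 was counted at day 0, and 51 were counted at day 14, at least 17.5-fold more when 3 reads over the group are taken as the limit for a count of 0. The laccase MA_10436564g0020 rose 4.17-fold from 66.2 ± 3.89 to 279 ± 77.9 reads. *PaLAC1-like* (MA_75861g0010) was not called, with 12.1, 15 and 1.12 reads at day 0 and 5.7, 0 and 15.4 at day 14 (log2 fold change −0.40 ± 1.35, adjusted *p* = 0.85).

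Class III peroxidases, which use hydrogen peroxide to oxidise monolignols and other phenols, fell more often than they rose. Of 54 listed, 40 passed the filter, 16 fell (40%) and 7 rose (17.5%), with a median log2 fold change of −0.97. *PaPRX66-like* (MA_10431507g0020), which the study used as a xylem gene, had 479, 572 and 522 normalized reads at day 0 and 14.2, 36.3 and 27.3 at day 14. It fell 19.7-fold (log2 fold change −4.3 ± 0.39, adjusted *p* = 4.2e-11), with no overlap between the days. The other 4 genes described as peroxidase 66, MA_10431507g0030, MA_100063g0010, MA_117730g0010 and MA_102298g0010, were also lower, with log2 fold changes of −4.21, −4.28, −5.78 and −2.19. *Peroxidase 72-like* (MA_179122g0010) had 620, 788 and 772 normalized reads at day 0 against 0, 1.13 and 2.38 at day 14, a ratio of 596 (95% exact binomial interval 204 to 2894) from 3 counted reads. *Peroxidase 27-like* (MA_188077g0010) had no read at day 14 and was at least 49.3-fold lower, although its day 0 libraries ran from 13.4 to 123, and in a fit of the 6 libraries alone it was not called (adjusted *p* = 0.083).

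Among the peroxidases that rose, *peroxidase A2-like* (MA_10436483g0010) had 1.51, 6.42 and 1.12 normalized reads at day 0 and 44.1, 81.6 and 64.1 at day 14 (log2 fold change 4.26 ± 0.59, adjusted *p* = 2e-07). A peroxidase 12 gene (MA_10432865g0010) rose from 6.03, 2.14 and 3.35 reads to 45.6, 97.5 and 128, with a wide error (log2 fold change 4.61 ± 1.48, adjusted *p* = 0.012).

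The fall of these enzymes did not extend to every xylem gene. *PaVND4-like* (MA_6777g0010), related to the *Arabidopsis* NAC factors that start vessel differentiation, had 167, 199 and 150 normalized reads at day 0 and 454, 346 and 378 at day 14. It rose 2.26-fold (log2 fold change 1.18 ± 0.15, adjusted *p* = 2.1e-08), and its lowest day 14 library was above the highest day 0 library. The phloem gene *PaAPL-like* (MA_201937g0010) had 54.3, 48.2 and 81.6 reads against 58.4, 74.8 and 55.8, which overlap (log2 fold change 0.03 ± 0.20, adjusted *p* = 0.92). The xylem genes *PaPRX66-like* and *PaVND4-like* thus moved in opposite directions, and neither they nor *PaAPL-like* were at 0 on either day.

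**Figure D3:**
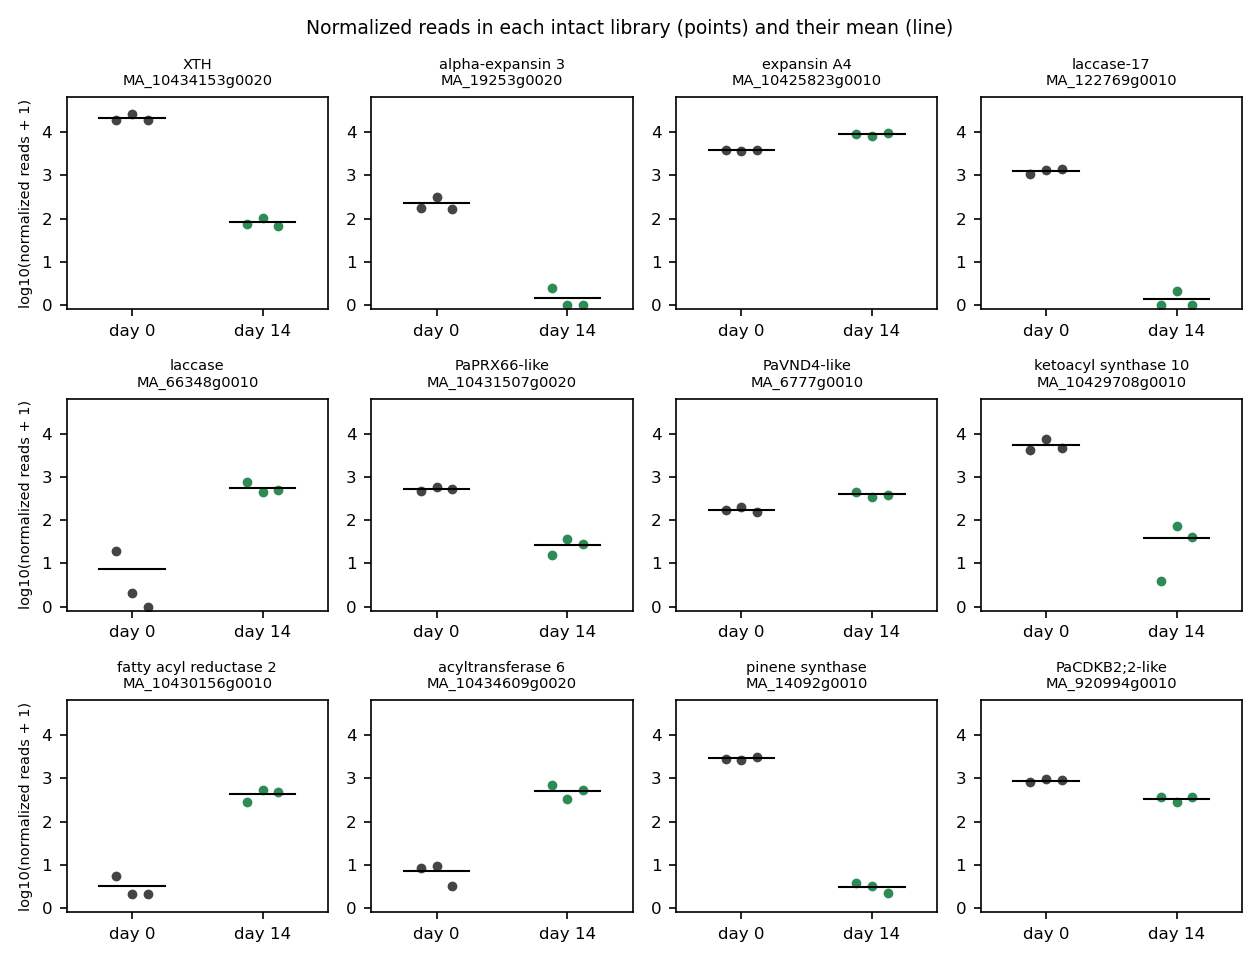
Normalized reads (log10 of the value plus 1) of 12 genes in each of the 3 day 0 and 3 day 14 intact libraries (points) with the mean (line). The days are separate in all 12 genes, by the most in *laccase-17* and pinene synthase and by the least in *expansin A4*, *PaVND4-like* and *PaCDKB2;2-like*.

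Enzymes that make the monolignols changed in both directions. Of 39 listed, 36 passed the filter, 4 rose (11.1%) and 7 fell (19.4%), with a median of −0.15. Among all described genes 12.9% were called each way. A gene described as trans-cinnamate 4-monooxygenase (MA_130482g0010), the hydroxylase early in the pathway, fell from 14480 to 6013 reads (2.42-fold). Of the dehydrogenases that end it, MA_10432110g0010 fell from 882, 1194 and 828 reads to 41.3, 42 and 67.7 (log2 fold change −4.26 ± 0.49, adjusted *p* = 1.2e-08), and MA_10253390g0010 fell from 58.8 to 3.91. The cinnamyl alcohol dehydrogenase MA_10436231g0010 moved the other way, from 811, 759 and 829 to 2407, 2504 and 2750 (log2 fold change 1.67 ± 0.09, adjusted *p* = 7.9e-19). A caffeic acid *O*-methyltransferase, MA_10426580g0010, had 3 counted reads at day 0 and 113 at day 14, a ratio of 38.7 (12.9 to 190), with day 14 libraries from 17 to 77.2.

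Dirigent proteins, which steer the coupling of monolignols into lignans, and the reductases that follow them had 8 members higher (27.6%) and 3 lower (10.3%) of 29 tested out of 31 listed, with a median of −0.17. The dirigent gene MA_10434362g0010 had 3.01, 2.14 and 0 normalized reads at day 0 and 584, 333 and 324 at day 14 (log2 fold change 7.89 ± 0.61, adjusted *p* = 1.2e-12). It was near 0 in all day 0 libraries and over 300 in all day 14 libraries. A second dirigent gene, MA_10428143g0010, rose 8.45-fold but had only 9.07 reads in replicate 2 of day 14 against 9.04 in replicate 1 of day 0. *Bifunctional pinoresinol-lariciresinol reductase 2-like* (MA_10432947g0010), a lignan enzyme, fell from 876 ± 128 to 335 ± 67.8 reads.

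Genes of the cuticle and surface lipids had the highest median of the 22 lists. Of 31 listed, 27 passed the filter, 15 rose (55.6%) and 6 fell (22.2%), with a median of 1.68, and summed reads went from between 10590 and 11880 to between 17814 and 19364 per library. Without MA_10429815g0020, a gene described as DCR, the sums of the tested members overlapped (6582 to 10300 and 7495 to 8893). With the falling ketoacyl synthase gene MA_10429708g0010 left out as well, they went from between 2129 and 2662 to between 7424 and 8890. *Fatty acyl reductase 2* (MA_10430156g0010), of a family that makes fatty alcohols for wax and suberin, had 4.52, 1.07 and 1.12 normalized reads at day 0 and 289, 531 and 474 at day 14. It rose by 7.66 ± 0.79 on the log2 scale (adjusted *p* = 1.2e-09). *Fatty acyl reductase 3-like* (MA_10122399g0010) had no read at day 0 and 51 at day 14, at least 17.5-fold more. These reductases were therefore at or near 0 in all 3 day 0 libraries.

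Further genes for surface polyesters rose with them. *Glycerol-3-phosphate 2-O-acyltransferase 6-like* (MA_10434609g0020), named after an *Arabidopsis* cutin enzyme, had 7.54, 8.56 and 2.23 reads at day 0 and 682, 325 and 536 at day 14 (log2 fold change 6.38 ± 0.42, adjusted *p* = 2.7e-14). A GDSL esterase/lipase (MA_10434622g0020), of a family that includes cutin and suberin synthases, went from 58.8, 35.3 and 10.1 to 2306, 1385 and 1682 (5.75 ± 0.39, adjusted *p* = 8.5e-14). Both had day 14 libraries over 20 times the highest of day 0. A further pair of genes was chosen after their values were seen, because in *Arabidopsis* such genes serve suberin or surface lipids. The lipid-transfer protein gene MA_113140g0010 went from 36.2, 8.56 and 14.5 reads to 961, 545 and 499 (36.1-fold), and *cytochrome P450 86B1-like* (MA_136449g0010) from 48.2, 16.1 and 21.2 to 951, 586 and 672 (27.2-fold). In each of these 4 genes replicate 1 was the highest of the day 14 libraries.

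The members of the same list that fell include enzymes of the very-long-chain fatty acid pathway. *3-ketoacyl-CoA synthase 10* (MA_10429708g0010), whose *Arabidopsis* namesake acts in the epidermis, had 4094, 7638 and 4663 normalized reads at day 0 and 2.85, 71.4 and 40.4 at day 14. It fell by 7.09 ± 0.62 on the log2 scale (adjusted *p* = 3.2e-11), 136-fold, and the day 14 libraries differed widely among themselves. A BAHD acyltransferase described as DCR (MA_22553g0010) had no read at day 14 and was at least 29.8-fold lower. Without replicate 2 of day 0 its adjusted *p* was 0.054. Another gene described as DCR, MA_10429815g0020, rose from 3241 to 10610 reads.

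Enzymes of pectin and cellulose also split by member. Of 37 pectate and pectin lyases, enzymes that cleave pectin, all were tested. Among them 13 rose (35.1%) and 4 fell (10.8%), with a median of 0.85. Their summed reads fell from between 15835 and 17553 to between 9065 and 11258. That fall was carried by the lyase MA_203992g0010, with 10876, 12264 and 10831 reads at day 0 and 1384, 1272 and 1263 at day 14 (log2 fold change −3.12 ± 0.18, adjusted *p* = 2.5e-16). The neighbours MA_10428603g0020 and MA_10428603g0010 rose from 24.2 to 324 and from 16.6 to 222 reads, and *PaPECTIN LYASE-like* (MA_6752784g0010) from 4.52, 1.07 and 1.12 to 19.9, 14.7 and 15.4 (log2 fold change 2.96 ± 0.89, adjusted *p* = 0.007).

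Pectin methylesterases make pectin open to cleavage or to calcium binding. Of 63 listed, 54 were tested, and 7 were higher (13%) and 9 lower (16.7%), against 12.9% each way of all described genes. Their median was −0.42 in edgeR over the 54 tested and −0.08 in DESeq2 over all members with a read. *PaPME5-like* (MA_10267810g0010) rose 2.24-fold, from 57.3, 53.5 and 63.7 to 128, 130 and 134 reads, with day 14 libraries that hardly differed (log2 fold change 1.16 ± 0.21, adjusted *p* = 1.3e-05). *Pectinesterase 2* (MA_756338g0010) fell 16-fold from 55.8, 81.4 and 197 reads to 2.85, 12.5 and 4.75. Beta-1,4-glucanases had 6 higher (27.3%) and 3 lower (13.6%) of 22 tested out of 23, with a median of −0.22, and their summed reads went from between 12948 and 14483 to between 30580 and 31283. That sum rested on an endoglucanase 3 gene (MA_216572g0010), without which the tested members went from between 5018 and 6397 to between 3712 and 4364. The family 9 glucanase MA_863320g0010 went from 3.01, 9.64 and 6.7 to 124, 105 and 125 reads and *endoglucanase 6* (MA_10437098g0010) from 469, 785 and 362 to 28.5, 12.5 and 28.5. *PaKOR1-like* (MA_69345g0010), of the group whose *Arabidopsis* member acts in cellulose synthesis, had a log2 fold change of −0.84 ± 0.29 (adjusted *p* = 0.018), under the 2-fold limit. Without replicate 3 of day 0 or replicate 2 of day 14 it passed that limit (−1.09 and −1.05).

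A gene used by the study for cell division was lower. *PaCDKB2;2-like* (MA_920994g0010), a plant-type cyclin-dependent kinase that acts around mitosis, had 809, 951 and 902 normalized reads at day 0 and 375, 279 and 360 at day 14 (log2 fold change −1.40 ± 0.12, adjusted *p* = 1.3e-12). With day 1 as the reference the change was −0.85, past the test but under 2-fold. In the cell cycle and chromatin list 5 members fell (13.2%) and 1 rose (2.63%) of 38 tested out of 44. Of all described genes, 12.9% were called lower and 12.9% higher, so the share that fell was near that background. The median was −0.40, with 28 of the 38 below 0. Summed reads went from between 6682 and 7182 to between 4644 and 5602. *Cyclin-D7-1* (MA_10429174g0010) fell from 48.2, 49.2 and 77.1 reads to 2.85, 4.54 and 8.32, and *cyclin-U2-1-like* (MA_10435168g0020) rose from 16 to 34.4. The rise of *cyclin-U2-1-like* was not called against day 1 (log2 fold change 0.3, adjusted *p* = 0.44). Without replicate 3 of day 0 it was under 2-fold (0.91).

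Auxin genes fell more often than they rose, with 11 lower (23.4%) and 5 higher (10.6%) of 47 tested out of 52 and a median of −0.14. Of the Aux/IAA repressors, which hold back auxin response, MA_10431093g0030, MA_10431605g0010, MA_10430843g0010 and MA_10430843g0020 were lower, with log2 fold changes of −1.98, −2.65, −2.62 and −2.91. The 4 other Aux/IAA genes of the list were not called. The small auxin-up RNA gene *SAUR71-like* (MA_10434931g0020) went from 70.8, 127 and 68.1 reads to 4.27, 5.67 and 8.32 (−3.84 ± 0.51, adjusted *p* = 5e-08), and *auxin-induced 6B-like* (MA_10431652g0010) from 110, 125 and 71.5 to 5.7, 5.67 and 11.9. Its relative *auxin-induced 15A-like* (MA_117133g0010) rose from 0, 5.35 and 7.82 to 81.2, 169 and 122, and an indole-3-acetic acid-amido synthetase gene (MA_16777g0010), of a family that conjugates auxin to amino acids, rose 2.97-fold.

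The study's list of transcription factors raised by grafting was chosen on libraries of this series, the day 14 intact ones among them, so its direction is no independent evidence. Of 64 listed, 60 passed the filter, 15 were called higher (25%) and 5 lower (8.33%) in these ungrafted plants, with a median of 0.20. A gene described as *AINTEGUMENTA* (MA_121578g0010), an AP2 factor that in *Arabidopsis* keeps cells dividing and marks the cambium, had 259, 232 and 256 normalized reads at day 0 and 1192, 1432 and 1513 at day 14. It rose 5.52-fold (log2 fold change 2.47 ± 0.12, adjusted *p* = 4.8e-20), with little spread on either day. *PaWIP4-like* (MA_29238g0010), a zinc finger gene, rose from 48.2, 53.5 and 32.4 to 181, 226 and 232 reads (2.25 ± 0.18, adjusted *p* = 8.5e-14). *PaLRP1-like* (MA_2299g0010), named after a lateral root primordium gene, had 1 counted read in each day 0 library and 32 in all at day 14, a ratio of 11 (95% exact binomial interval 3.43 to 55.9).

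The transcription factors that fell included *ATHB-51* (MA_12866g0010), a homeodomain-leucine zipper gene, from 116, 123 and 107 to 8.54, 4.54 and 8.32 reads (−4.02 ± 0.35, adjusted *p* = 1.3e-12). *PaMYB4-like* (MA_316475g0010), related to *Arabidopsis* repressors of phenylpropanoid genes, fell from 27.1, 20.3 and 16.8 to 4.27, 1.13 and 9.5 (−2.06 ± 0.67, adjusted *p* = 0.013). The call was lost without replicate 2 of day 14 (adjusted *p* = 0.089) and with all libraries thinned to the smallest total (0.073). *PaMYB123-like* (MA_10048467g0010) had 1 counted read at day 0 and 3 at day 14 and was too sparse to compare.

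Of 4 genes that the study followed in wound healing, 1 was called in these uncut stems, and that call was not stable. *PaWOX13-like* (MA_116716g0010), a homeobox gene that in *Arabidopsis* acts in callus, rose from 9.04, 7.49 and 15.6 to 24.2, 17 and 28.5 normalized reads (1.08 ± 0.35, adjusted *p* = 0.011). It was not called without replicate 2 of day 0 (0.085), without replicate 3 of day 14 (0.075) or against day 1 (0.059). *PaPAT1-like* (MA_10426489g0020), a GRAS gene, had 45.2, 53.5 and 40.2 reads against 69.8, 61.2 and 65.3 (0.48 ± 0.20, adjusted *p* = 0.054). *PaERF115-like* (MA_10274g0010) was under 4 reads in all 6 libraries. *PaWIND1-like* (MA_98464g0010) ran from 1.51 to 26.8 reads at day 0 and from 0 to 8.54 at day 14 and was not called (adjusted *p* = 0.34).

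Terpene synthases make the volatile and resin terpenes of conifers. A gene described as pinene synthase (MA_14092g0010) had 2793, 2688 and 3131 normalized reads at day 0 and 2.85, 2.27 and 1.19 at day 14. It fell by 10.37 ± 0.84 on the log2 scale (adjusted *p* = 5.1e-12), and at day 14 only a few reads were counted in each library. Of 16 terpenoid genes tested out of 17 it was the only one called lower (6.25%), and 3 were called higher (18.8%), with a median of −0.89. The sesquiterpene synthase MA_10025722g0010 rose from 9.04, 6.42 and 4.47 to 120, 117 and 95 reads. Summed over the list, reads went from between 2787 and 3179 to between 247 and 269. Pinene synthase carried that fall, and without it the tested members went from between 48 and 203 to between 245 and 265.

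Light-stress and dehydration genes were also measured. Early light-induced proteins, which bind pigments in chloroplasts under strong light, had 2 of 6 members higher (33.3%), with a median of 0.34. MA_10432802g0010 went from 3496, 2406 and 3607 to 14724, 10235 and 15845 reads (2.10 ± 0.23, adjusted *p* = 4.7e-09), and MA_10432488g0010 rose from 167 to 363, though not against day 1 (adjusted *p* = 0.13). In the list of LEA, dehydrin and water-stress proteins, which protect cells that dry, 10 fell (27%) and 2 rose (5.41%) of 37 tested out of 40, with a median of −0.29. Both that rose were galactinol synthase genes, of the raffinose pathway, and MA_10312128g0010 had 2 counted reads at day 0 and 114 at day 14 (ratio 58.6, 15.8 to 489).

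Cytosolic ribosomal protein genes mostly moved upward, each by little. Of 79 listed, 77 passed the filter and 3 were called higher (3.9%). A log2 fold change above 0 was found in 72 of the 77, against 19563 of all 38436 genes tested. The median was 0.40 (0.51 with scaling by library size alone). Summed reads went from between 115970 and 134460 per library to between 164371 and 172371. *60S ribosomal protein L32-1* (MA_10434621g0010) went from 1789, 1777 and 1576 to 3681, 3972 and 3570 reads (1.12 ± 0.07, adjusted *p* = 4.2e-17). Flavonoid enzymes had 4 higher (12.5%) and 5 lower (15.6%) of 32, with a dihydroflavonol 4-reductase gene (MA_10432784g0010) 4.38-fold higher and a flavonol synthase gene (MA_10435737g0040) 3.84-fold lower.

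The remaining lists are given by their counts. Pathogenesis-related proteins had 9 higher (14.5%) and 5 lower (8.06%) of 62 tested, NLR resistance proteins 5 (7.94%) and 3 (4.76%) of 63, heat shock proteins and chaperones 6 (9.84%) and 5 (8.2%) of 61, jasmonate genes 3 (11.5%) and 3 (11.5%) of 26, and sugar transport and cleavage genes 4 (20%) and 2 (10%) of 20. In the order of that sentence their medians were 0.25, 0.38, 0.32, −0.30 and −0.17.

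Most genes tested had no description (3430 of 38436 had one). Among genes with a mean of at least 100 reads on their higher day, the 8 largest falls by fitted fold change were all without a description. With that share, this is not read as a trait of such genes. All 8 ended without a read at day 14. MA_124502g0010 led them with 1488, 2775 and 2278 normalized reads at day 0, at least 1823-fold lower, and MA_358712g0010 followed at least 1339-fold lower. The largest fitted rise was that of MA_922767g0010, with no read at day 0 and 570, 261 and 393 at day 14, at least 329-fold higher. *Cytochrome P450 82C4-like* (MA_10055697g0010), among the described genes with the largest rises, had 3 counted reads at day 0 and 346 at day 14 (ratio 119, 40.2 to 577). Of the 6 gene models with the most counts, MA_10431300g0020 was at 1.83% ± 0.121 of a library's reads at day 0 and 2.03% ± 0.202 at day 14. MA_131587g0010 went from 1.37% ± 0.053 to 1% ± 0.0122 and passed the test but not the 2-fold limit (log2 fold change −0.56 ± 0.14, adjusted *p* = 0.0011). MA_273360g0010 was the 1 called, going from 0.935% ± 0.0504 to 0.252% ± 0.0245 (log2 fold change −2.01 ± 0.10).

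Intact plants of the other days showed when these levels were reached. Against day 0, 57 genes were called higher (0.148%) and 26 lower (0.0676%) at day 1, and 531 (1.38%) and 851 (2.21%) at day 3. At day 7 the counts were 2618 (6.81%) and 3119 (8.11%), and at day 28 they were 3794 (9.87%) and 3097 (8.06%). These comparisons share the day 0 libraries with that of day 14. Tested directly between day 14 and day 7, 666 genes were higher (1.73%) and 388 lower (1.01%), or 415 and 235 without replicate 2 of day 7. Between day 28 and day 14, 678 were higher (1.76%) and 211 lower (0.549%).

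**Figure D4:**
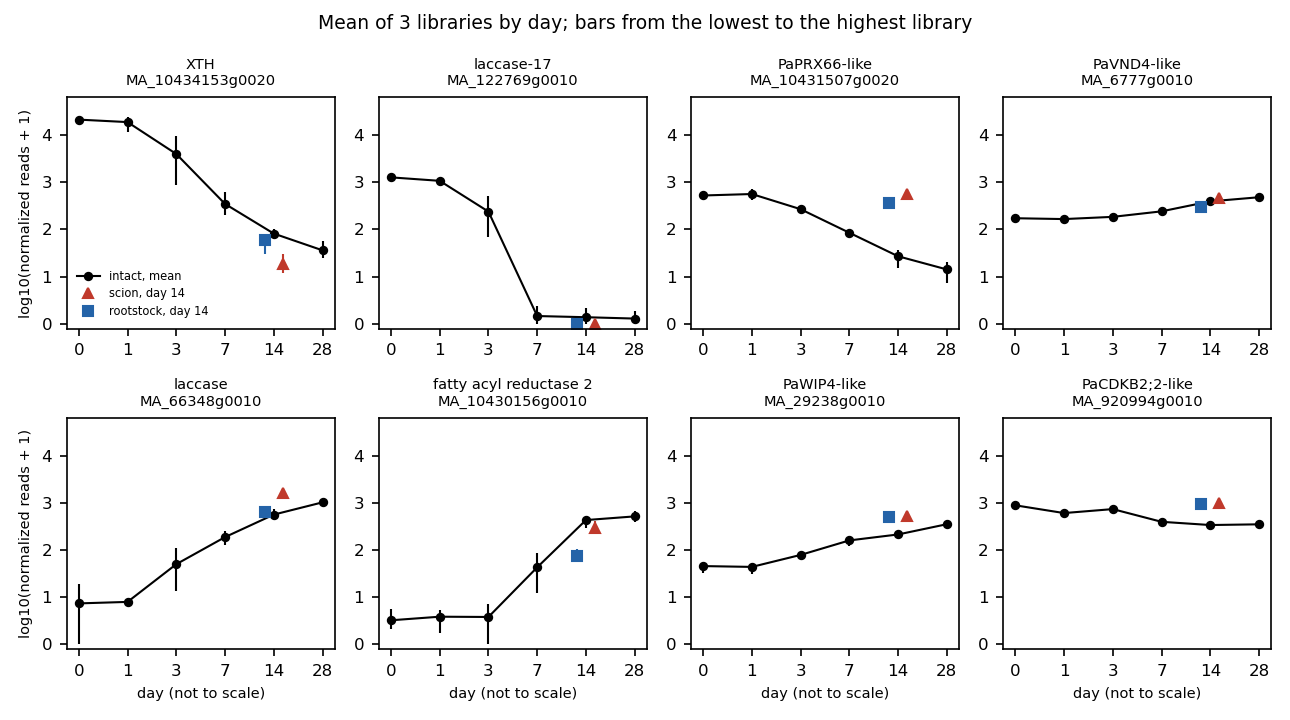
Mean normalized reads (log10 of the mean plus 1) of 8 genes in intact plants by day, with bars from the lowest to the highest of 3 libraries, and the scion and rootstock means at day 14. *Laccase-17* was near 0 from day 7 on, fatty acyl reductase 2 went from 2.81 at day 3 to 42 at day 7 and 431 at day 14, and the *PaPRX66-like* means of day 14 were 26 without grafting, 558 above the graft and 355 below it.

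The genes reached their day 14 level at different times. *Laccase-17* (MA_122769g0010) averaged 1073 reads at day 1, 238 at day 3 and 0.46 at day 7, so its fall was complete by day 7. The XTH MA_10434153g0020 went from 18899 at day 1 to 3984, 347 and 80.8 at days 3, 7 and 14, and still fell between day 7 and day 14 (−2.09, adjusted *p* = 0.022). *Fatty acyl reductase 2* (MA_10430156g0010) averaged 2.81 at day 3, 42 at day 7 and 431 at day 14, a rise of 3.40 on the log2 scale over the last week (adjusted *p* = 2.9e-05).

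*PaVND4-like* (MA_6777g0010) also rose in that week, from 241 ± 22.1 at day 7 to 393 ± 55.7 at day 14 (log2 fold change 0.71, adjusted *p* = 0.00091), which passed the test but not the 2-fold limit. *PaPRX66-like* (MA_10431507g0020) fell from 84.1 ± 7.18 to 26 ± 11.1 in that week (−1.64, adjusted *p* = 0.016). *PaCDKB2;2-like* (MA_920994g0010) averaged 396 at day 7, 338 at day 14 and 350 at day 28, and its change between day 7 and day 14 did not pass the test (−0.22, adjusted *p* = 0.26). Set beside grafted plants of day 14, *PaPRX66-like* averaged 26 reads without grafting, 558 above the graft and 355 below it. These levels were not tested against each other here. *Laccase-17* (MA_122769g0010) had no read in the scions or rootstocks of that day.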

How the data were processed

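Poly(A) RNA from hypocotyls was sequenced as stranded, paired libraries. According to the study's methods and the labels, the authors removed ribosomal reads, trimmed with fastp, used STAR for alignment to the first release of the spruce genome, and HTSeq for counting by strand over gene models. The deposited values are raw counts, whole numbers without scaling, for 70736 gene models, of which 15492 had no read in any of 48 libraries. How reads that fit several genes were treated is not given in the sources used here, so families of near copies are uncertain. No genome or sequence was used.

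All 48 libraries (16 groups of 3) were fitted together in edgeR 4.0.16 (R 4.3.3) with filterByExpr (minimum count 10), TMM factors and the robust quasi-likelihood *F* test. The study tested with DESeq2 and the same limits. Benjamini–Hochberg adjustment ran over 38436 genes. Calls needed an absolute log2 fold change over 1 and an adjusted *p* under 0.05. SE was obtained by dividing the size of the log2 fold change by the root of *F*, and can be too small with few reads. Normalized reads use size factors from DESeq2 1.42.0. Ratios with 1 to 3 reads on one day have 95% exact binomial intervals, and a count of 0 was set to 3 reads over the group. Intervals and limits cover counting error only. The test was checked on simulated data drawn with the spread of its own fit. This checks the code and cannot show that the calls made here are right.

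Descriptions came from the study's supplement, in part shortened, and in part from its tables of genes that differed. Of the 22 lists, 5 were the study's and 17 were made by key words. Lists, named genes and comparisons were chosen with earlier results of these data known. Named were the 16 genes with a name in the paper, the 8 largest rises and 8 largest falls over non-overlapping called genes with a mean of at least 100 reads (again among described genes), the 2 largest of each direction per list with at least 20 reads, and the 5 genes with the most counts each day. Further list members given in the text lie outside this rule. Alternatives changed the tool, scaling, filter, libraries, reference day, depth and replicate block. Replicate numbers were not treated as pairs. Deviations of same-numbered libraries correlated at −0.052 to −0.011, and those of other pairs at −0.015 to 0.058. With so few libraries this cannot show that the numbers carried no pairing.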

Additional observations from a re-analysis of the deposited data

How the results depend on the processing

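Leaving out 1 of the 6 libraries gave 2765 to 3149 genes higher and 2783 to 3147 lower at day 14. Leaving out 1 library gave 415 to 864 higher and 235 to 546 lower between day 14 and day 7, the lowest without replicate 2 of day 7. The test against a 2-fold change gave 1297 and 1470 by its construction. Every other alternative run kept both day 14 counts within 1.5 times. They ranged from 2319 higher and 2631 lower, with the replicate number as a block in a fit of the 6 libraries alone, to 3513 higher with scaling by library size alone. The replicate block in the fit of 48 libraries gave 2980 and 3081 at day 14 and 666 and 391 between day 14 and day 7, and changed no call of a named gene. Library size alone moved the median of all genes from 0.013 to 0.124 and the share of higher calls from 49.4% to 57.1%.

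Single genes were followed under these alternatives only if named by the rule or chosen after their values were seen (125 genes). Further list members in the text, such as the XTH MA_10434153g0010 and the Aux/IAA genes, were not followed. No named gene reversed under any of these alternatives. Of 113 called, 81 kept the call wherever they were tested, and 27 lost it in the test against a 2-fold change and 11 with day 1 as the reference. Some named genes did not pass the filter in the fits of fewer libraries, and being left out was not counted as a loss. The small medians of the monolignol enzymes and of the beta-1,4-glucanases were 0 in DESeq2. List medians in DESeq2 also took in members with few reads that edgeR's filter left out, so they differ by more than the tool. Depth limits genes with few reads on both days, such as *PaERF115-like*, *PaMYB123-like* and *PaLAC1-like*, for which no difference was detectable.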

Other observations

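In 2 genes, chosen after their values were seen, the day 3 intact libraries spread widely. The XTH MA_10434153g0020 ran from 878 to 9445 normalized reads over the 3 day 3 libraries, against 19206 to 25491 at day 0 and 66.5 to 103 at day 14, and pinene synthase (MA_14092g0010) from 83.4 to 1455. The cause was not tested.

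The terpenoid list had a median log2 fold change of 1.52 against day 0 at day 7 and of −0.89 at day 14, with 3 members called higher and 1 lower on either day. Tested directly between day 14 and day 7, none of its 16 members was called, and the median was −0.7. A gene described as vegetative cell wall gp1-like (MA_18633g0010), chosen after its values were seen, went from 146, 11.8 and 32.4 reads at day 0 to 3592, 1791 and 2093 at day 14 (43-fold), with replicate 1 the highest on both days.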
